A study of Homo sapiens with 18 samples.

Results

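The Polycomb protein RING1B was found at 1587 reproducible sites in A673 cells, and 811 of these sites, described here, also carried the fusion oncoprotein EWSR1-FLI1 but not the histone mark H2Aub1. They were chosen by the deposited chromatin immunoprecipitation sequencing (ChIP-seq) peaks. Overlapping RING1B peaks (1 bp or more) were merged over both replicates, and a merged region was kept where it held a peak of each replicate. It was selected on sharing at least 1 bp with an EWSR1-FLI1 peak and none with an H2Aub1 region made from both H2Aub1 replicates in the same way. Of the remaining RING1B regions, 234 held H2Aub1 alone, 81 held both features and 461 held neither of them. The selected regions made up 51.1% of the reproducible RING1B regions, a share that the choice itself fixes. With all peaks of RING1B replicate 2 in place of the reproducible ones, that is without replicate 1, the share was 26.8% and the number 1056.

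A673 is an established human cell line grown from an Ewing sarcoma, and the labels of all libraries used name this line and no treatment. The lists used were RING1B (2 replicates), EWSR1-FLI1 (1 sample, with no replicate) and H2Aub1 (2 replicates), out of 18 samples in the series. The other 13 samples, among them inputs, 2 further Polycomb proteins and a RING1B knockdown with its control, were not analysed here. Nothing in the labels ties the replicates to different cultures, so their spread may be technical. With peak lists alone, the identity of the cells could not be checked against marker genes.

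RING1B is the catalytic subunit of Polycomb repressive complex 1 (PRC1), which attaches a single ubiquitin to histone H2A and thereby writes H2Aub1. At classical Polycomb targets, such as silent developmental regulator genes, enzyme and mark lie together over broad stretches of chromatin. EWSR1-FLI1 joins part of EWSR1 to the DNA-binding ETS domain of FLI1 and is known for binding GGAA motifs, including tandem GGAA repeats far from promoters that act as enhancers in Ewing sarcoma cells. RING1B regions that hold the fusion without the mark therefore differ from the classical Polycomb pattern by definition. A gene annotation and a genome sequence of hg19 were not used here, so the regions are given by hg19 coordinates and chromosome band, without gene names.

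The EWSR1-FLI1 list held 2145 peaks, the RING1B lists 2573 and 3945 peaks and the H2Aub1 lists 26423 and 10268 peaks. Each peak has a score from the authors' peak caller, of unstated scale, with a lowest value close to 50 in each list. The depth of the libraries is unknown, and scores were read only within a list. The intervals below are 95% intervals for counting error over regions (Wilson for a share, Newcombe for a difference of shares). Neighbouring regions are not independent of each other, so these intervals are too narrow.

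The strongest EWSR1-FLI1 peaks of the genome lay in these regions. All 10 peaks with the highest EWSR1-FLI1 scores were in the selected regions, as were 96 of the top 100 (interval 90.2 to 98.4%). By rank of the EWSR1-FLI1 peak, 76.6% of ranks 1 to 500 were in them (72.7 to 80.1%), and 44.4% of ranks 501 to 1000. The share was 24.4% for ranks 1001 to 1500, 15.0% for ranks 1501 to 2000 and 9.66% for the last 145 peaks. Of all EWSR1-FLI1 peaks, 816 lay in the 811 regions (38.0%). Over the same bins the regions with both features held 30, 24, 13, 12 and 2 peaks. A decline with rank was therefore not particular to the regions without the mark. Presence of a peak was the criterion of choice, so this gradient is a description and no test was made.

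**Figure D1:**
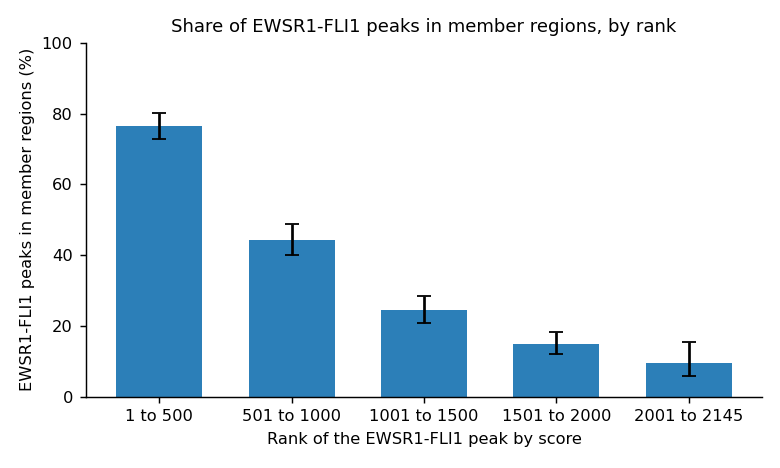
Share of EWSR1-FLI1 peaks (%, vertical axis) that lay in a RING1B region without H2Aub1, by rank of the EWSR1-FLI1 peak score (horizontal axis); bars are shares and lines are 95% Wilson intervals. The share was 76.6% among ranks 1 to 500 and lower in each following bin, down to 9.66%.

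The region with the highest EWSR1-FLI1 score lay at 8q12.1 (chromosome 8, 56305006 to 56307694). Its EWSR1-FLI1 score was 2117.51, and its RING1B scores of 2082.32 and 1416.76 ranked first of the 811 regions in both replicates. The second, at 22q12.2 (chromosome 22, 30831211 to 30832463), had an EWSR1-FLI1 score of 2091.39 but RING1B scores of only 412.59 and 489.89, which ranked 134 and 66. The fusion was thus almost equally strong by score at these sites, while RING1B ranked first of the 811 regions at 8q12.1 and well below that at 22q12.2. Over all peaks of the RING1B lists the highest scores were 3100 in replicate 1 and 3198.9 in replicate 2.

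The third lay at 18p11.22 (chromosome 18, 10461586 to 10463446), with an EWSR1-FLI1 score of 1754.78 and RING1B ranks of 9 and 6. It was followed by a region at 6p22.3 (chromosome 6, 24381280 to 24383096), with an EWSR1-FLI1 score of 1736.5 and RING1B ranks of 4 and 29. The fifth, at 21q22.13 (chromosome 21, 38011730 to 38013743), had an EWSR1-FLI1 score of 1710.77 and lay only 50 bp from an H2Aub1 region. Its place among the regions without the mark therefore rests on the 1 bp rule. The sixth, at 18p11.31 (chromosome 18, 3742057 to 3743435), had an EWSR1-FLI1 score of 1559.34 and RING1B ranks of 26 and 5.

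The seventh was the widest of the 10 at 3722 bp and lay at 14q32.2 (chromosome 14, 97681312 to 97685033), with an EWSR1-FLI1 score of 1547.05 and RING1B ranks of 3 and 2. Regions at 10q23.2 (chromosome 10, 88506967 to 88508541, EWSR1-FLI1 score 1511.1) and 2q31.1 (chromosome 2, 177520162 to 177522444, 1485.05) came next. The last of the 10, at 12q21.33 (chromosome 12, 89671546 to 89673507), had an EWSR1-FLI1 score of 1422.84 and the lowest RING1B scores of the 10, at 335.79 and 336. In these 10 regions the RING1B score ranged from 335.79 to 2082.32 in replicate 1 (median 1054) and from 336 to 1416.76 in replicate 2 (median 850). The medians over all 811 regions were 154 and 143, so each of the 10 was above both.

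Across all 811 regions high scores of one protein went with high scores of the other. The EWSR1-FLI1 score correlated with the RING1B score at a Spearman rho of 0.683 in replicate 1 and 0.636 in replicate 2, beside 0.671 between both RING1B replicates. These are correlations across regions, which share their libraries and the width over which reads were collected. Pearson's r was 0.750 and 0.761 for the 2 proteins and 0.839 for the replicates. Of the 81 of 811 regions with the highest scores in each list, 44 were shared by all 3 lists and 61 by both RING1B lists. All 811 were chosen for a peak in each of these lists. EWSR1-FLI1 shared 46 with RING1B replicate 1 and 53 with replicate 2, fewer than the RING1B replicates shared with each other.

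**Figure D2:**
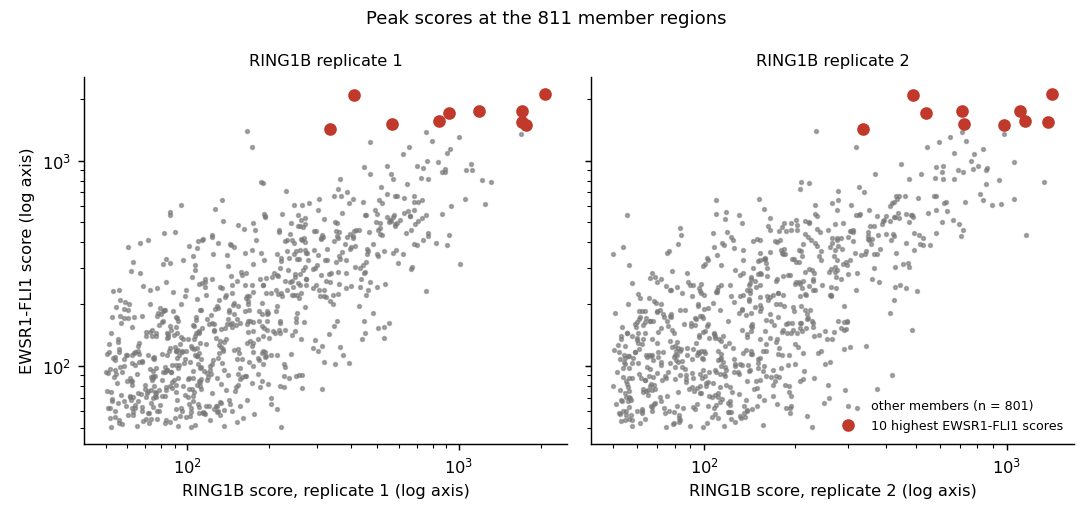
EWSR1-FLI1 score (vertical log axis) against RING1B score (horizontal log axis) in replicate 1 (left) and replicate 2 (right); each point is one of the 811 regions and the 10 with the highest EWSR1-FLI1 scores are red. High scores went together, and the red points spread from 335.79 to 2082.32 along the RING1B axis of replicate 1.

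Some regions stood away from this relation. They were picked after their values were seen, by the difference in rank. A region at 12q24.32 (chromosome 12, 127450903 to 127452050) ranked 185 of 811 for EWSR1-FLI1 (score 381.19) but 756 and 791 for RING1B (60.69 and 54.12). Another on the same chromosome, at 12p12.1 (23717102 to 23718090), ranked 85 for EWSR1-FLI1 (546.23) and 630 and 775 for RING1B (86.26 and 55.88). The opposite held at 6q16.1 (chromosome 6, 95387496 to 95391333), which ranked 695 for EWSR1-FLI1 (76.74) and 194 and 111 for RING1B (312.89 and 372.36). That region was 3838 bp wide, and its EWSR1-FLI1 peak lay 1329 and 956.5 bp from the RING1B peak centres. A narrow region of 930 bp at Xp22.32 (chromosome X, 5196770 to 5197699) also ranked low for EWSR1-FLI1 (597) and high for RING1B (171 and 199). There the centres were 94.5 and 46 bp apart.

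The regions were ordered by EWSR1-FLI1 score and divided into 4 groups of 203, 203, 203 and 202. From the top to the bottom group the median RING1B score was 413, 198, 113 and 91.1 in replicate 1, and 351, 153, 104 and 97.1 in replicate 2. The median width of the merged region was 1512, 1269, 1207 and 1144 bp in the same order. Another RING1B region lay within 50 kb of 30.5% of the top group, and of 24.1%, 19.2% and 19.8% of the others. The top group was thus the widest and had neighbours most often. The width of the EWSR1-FLI1 peak itself went with its score (Spearman rho 0.521 across regions).

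EWSR1-FLI1 and RING1B peaks were centred close to each other. The median distance between the EWSR1-FLI1 centre and the RING1B centre was 65 bp in replicate 1 and 68 bp in replicate 2, beside 67 bp between the RING1B replicates. The regions that also held H2Aub1 had medians of 57 and 49 bp, with 52.5 bp between the RING1B replicates, so the close centring was not particular to the regions without the mark. Within 100 bp lay 70.4% of the regions for replicate 1 (67.2 to 73.4%), 64.1% for replicate 2 (60.8 to 67.3%) and 64.1% for the RING1B replicates against each other. In the regions with both features the shares for EWSR1-FLI1 were 75.3% and 79.0%. The distance did not follow the EWSR1-FLI1 score, with medians from 57.5 to 74 bp over the 4 groups and both replicates. Overlap was a criterion of choice, which limits how far the centres can lie apart, and no test was made.

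**Figure D3:**
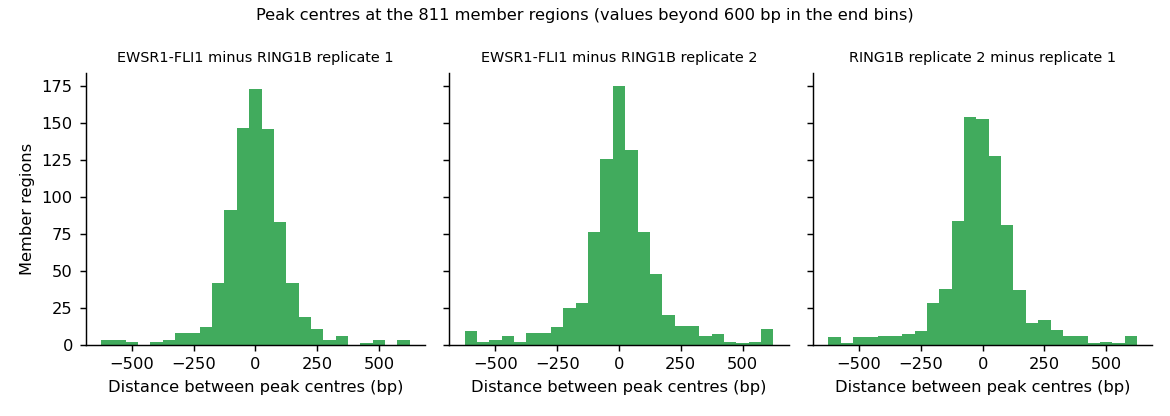
Signed distance between peak centres (bp, horizontal axis) at the 811 regions for EWSR1-FLI1 minus RING1B replicate 1, EWSR1-FLI1 minus RING1B replicate 2 and RING1B replicate 2 minus replicate 1; bars count regions, and values beyond 600 bp stand in the end bins. All 3 distributions peak near 0, with median absolute distances of 65, 68 and 67 bp.

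EWSR1-FLI1 peaks were slightly narrower than RING1B peaks at the same site. Their median width was 1060 bp, against 1128 bp for RING1B in replicate 1 and 1174 bp in replicate 2. The EWSR1-FLI1 peak was the narrower one in 62.1% of the regions for replicate 1 (58.8 to 65.4%) and in 68.6% for replicate 2 (65.3 to 71.7%), and it lay wholly inside the merged region in 496 of 811. Merged regions ranged from 699 to 5011 bp with a median of 1272 bp. Only 8 of 811 were wider than 3 kb (0.986%), against 28 of 461 regions with neither feature (6.07%), a difference of -5.09 percentage points (-7.70 to -3.02). Regions with both features had 0 of 81 (up to 4.53% by the Wilson interval), regions with H2Aub1 alone 26.9% and all RING1B regions 6.24%. The widest lay at 7q31.2 (chromosome 7, 116161701 to 116166711, 5011 bp). Of the 7 that followed, 4 were on chromosome 11, and 3 of these lay in band 11p12.

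Nearly all regions were single sites. In 805 of 811 there was 1 EWSR1-FLI1 peak, and 6 regions held 2. Among these, a region at 6q14.1 (chromosome 6, 81776281 to 81778471) had EWSR1-FLI1 scores of 453.55 and 86.94 at centres 1178 bp apart under 1 RING1B peak in each replicate. A region at 10q26.3 (chromosome 10, 131090954 to 131093329) had EWSR1-FLI1 scores of 50.76 and 506.36, with 1196 bp between the centres. Each of the 6 had a single RING1B peak in both replicates. The one at 4q25 (chromosome 4, 108086896 to 108087984) lay 26 bp from another of the 811 regions, with RING1B peaks of its own, and 1 of its EWSR1-FLI1 peaks touched both regions and was centred in that neighbour. The next RING1B region was at least 20671 bp away from the other 5.

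Another reproducible RING1B region lay within 50 kb of 190 of 811 (23.4%, 20.6 to 26.5%), beside 27.0% of all reproducible RING1B regions. The share was 48.7% (42.4 to 55.1%) for regions with H2Aub1 alone, a difference of -25.3 percentage points (-32.2 to -18.3). It was 23.4% for regions with neither feature, with a difference of 0.000535 points and an interval of -4.94 to 4.74. Against regions with neither the sign depended on the distance, with -3.48 points (-7.13 to -0.158) within 10 kb and 7.21 points (1.499 to 12.8) within 200 kb. Counting only neighbours from 5 to 50 kb away, an alternative added after seeing the data, the shares were 19.5% and 28.6% for regions with H2Aub1 alone (difference -9.15 points, -15.8 to -3.03). Neighbours less than 5 kb away, which can be parts of the same broad region, are left out of that count. Parts that lie farther apart are still counted.

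Of the 190 regions with a neighbour within 50 kb, the nearest one was again a RING1B region with EWSR1-FLI1 and no H2Aub1 in 131 (68.9%, 62.0 to 75.1%). Over all 429 RING1B regions with such a neighbour, the nearest was of this kind in 43.1%, and the 811 regions make up 51.1% of all RING1B regions. Without RING1B replicate 1 the share was 48.8% of 377, and in that setting regions of this kind made up 26.8% of all RING1B regions. For the 190, the nearest neighbour carried H2Aub1 alone in 7 (3.68%), both in 6 (3.16%) and neither in 46 (24.2%). Among the 114 regions with H2Aub1 alone that had such a neighbour, 7 had a nearest neighbour with EWSR1-FLI1 alone (6.14%, 3.01 to 12.1%). The difference was 62.8 points (53.7 to 69.7). Regions with H2Aub1 alone had a nearest neighbour of their own kind in 89 of 114 (78.1%, 69.6 to 84.7%), so like neighbours were not particular to the regions with EWSR1-FLI1. Against regions with neither feature (41 of 108, 38.0%) it was 31.0 points (19.3 to 41.5), and against regions with both (6 of 17, 35.3%) it was 33.7 points (9.25 to 52.7). Both regions of a mutual pair enter the count, and neighbouring RING1B regions can share a single H2Aub1 region. The class of a neighbour comes from the same peak lists that made the classes. These differences are therefore a description, and no test was made.

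**Figure D4:**
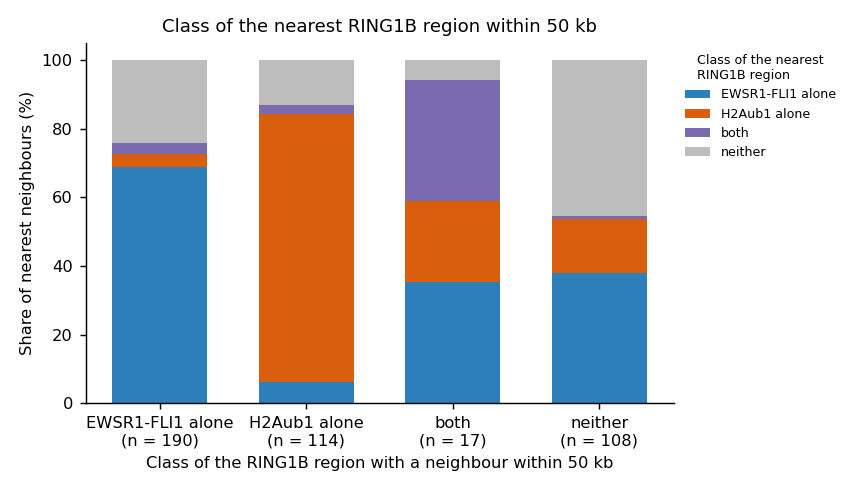
Class of the nearest other RING1B region (share in %, vertical axis) for RING1B regions with a neighbour within 50 kb, by their own class (horizontal axis): EWSR1-FLI1 alone (n = 190), H2Aub1 alone (n = 114), both (n = 17) and neither (n = 108). The nearest neighbour was of the class EWSR1-FLI1 alone for 68.9% of the first group and for 6.14% of the second.

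Further EWSR1-FLI1 peaks were also close. A peak other than the one in the region lay within 50 kb of 30.9% of the 811 regions (27.9 to 34.2%), against 8.97% of regions with H2Aub1 alone (5.94 to 13.3%) and 17.1% of regions with neither (14.0 to 20.8%). The differences were 21.98 points (16.6 to 26.4) and 13.8 points (8.99 to 18.4). The classes were made with this same list of EWSR1-FLI1 peaks, so the differences are a description and no test was made. Regions with both features had a share of 24.7% (16.6 to 35.1%), whose interval overlaps that of the 811 regions, and all RING1B regions one of 23.4%. Within 10 kb the shares were 11.8%, 3.42%, 5.42% and 9.88% (the last for regions with both). The median distance to the next EWSR1-FLI1 peak was 129 kb, against 574 kb from regions with H2Aub1 alone and 308 kb from regions with neither. For regions with both features it was 241 kb.

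Linking regions less than 100 kb apart left 586 of the 811 alone. The other 225 (27.7%) formed 82 pairs, 19 groups of 3 and 1 group of 4. The group of 4 lay at 8p22 (chromosome 8, 12745983 to 12786235) and spanned 40.3 kb. From low to high coordinates its EWSR1-FLI1 scores were 304.61, 300.87, 398.76 and 789.7, its RING1B scores in replicate 1 were 271.17, 431.6, 826.13 and 1308, and those in replicate 2 were 271.65, 364.53, 465.33 and 1324.14. The last of the 4 was the strongest in all 3 lists, and the first pair was 556 bp apart.

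Of the groups of 3, the most compact spanned 22.8 kb at 8p12 (chromosome 8, 32064558 to 32087312), with EWSR1-FLI1 scores of 285.56, 146.18 and 127.96. Its last region had RING1B scores of only 51.63 and 62.42, near the lowest values of the lists. At 7q21.13 (chromosome 7, 90223455 to 90251806) the EWSR1-FLI1 scores were 1232.94, 246.93 and 299.7. RING1B scores there were 471.71, 163.43 and 295.08 in replicate 1 and 599.81, 91.82 and 145.18 in replicate 2. In that group 1 strong site stood beside weaker ones in all 3 lists. At 3p22.3 (chromosome 3, 33960862 to 33998623) the EWSR1-FLI1 scores were 819.7, 100.45 and 304.28, and the middle site was also the lowest for RING1B, at 90.85 and 71.9. At 5q32 (chromosome 5, 147089668 to 147130443) they were 88.73, 260.33 and 220.47. None of these 5 groups held a RING1B region of another class, and none held an H2Aub1 region, the nearest being 203 kb away from the group at 8p22.

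At the other end stood isolated regions, picked here by their distance. The farthest from any other RING1B region was at Xq21.33 (chromosome X, 97049845 to 97050794), 18699 kb from the next, with an EWSR1-FLI1 score of 93.34. A region at Xq13.1 (chromosome X, 68513455 to 68514816) was 9296 kb from the next but strong, with an EWSR1-FLI1 score of 655.42 and RING1B scores of 629.18 and 508.24. A region at 14q32.33 (chromosome 14, 106096871 to 106097770) was 8171 kb from the next and ranked 11 of all EWSR1-FLI1 peaks (score 1402.04), with RING1B scores of 166.17 and 234.17. The median distance to the nearest RING1B region of any class was 201 kb.

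The regions lay more often in the dark bands of Giemsa-stained chromosomes, which are known as gene-poor and AT-rich, than RING1B regions with the mark did. Bands in the 2 darkest classes held 325 of 811 (40.1%, 36.8 to 43.5%), beside 34.0% of all reproducible RING1B regions and 29.8% of the hg19 length of chromosomes 1 to 22 and X. The share was 17.5% (13.2 to 22.9%) for regions with H2Aub1 alone, a difference of 22.6 points (16.2 to 28.1). It was 25.9% for the regions with both and 33.0% for those with neither (difference 7.10 points, 1.58 to 12.5). Counting regions of a class within 50 kb as 1 gave 39.7% and 17.8% for regions with H2Aub1 alone. Each region was assigned to a band by its midpoint, and band borders are approximate, so a region near a border can be misplaced.

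EWSR1-FLI1 peaks with no RING1B peak in either replicate were less often in dark bands than the selected regions, with 228 of 694 (32.9%, 29.5 to 36.4%), a difference of 7.22 points (2.34 to 12.03). Those 694 peaks were not filtered for H2Aub1, while the 811 regions were, so the sets differ in more than RING1B. Light bands held 39.2% of the 811 regions and 48.2% of those with neither feature, beside 42.4% of the hg19 length of chromosomes 1 to 22 and X. Of the reproducible H2Aub1 regions, 69.7% lay in light bands and 9.19% in dark ones. H2Aub1 was thus rare in dark bands throughout the genome, and the choice of regions without the mark moves with this. The part of the choice in the band difference was not tested.

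**Figure D5:**
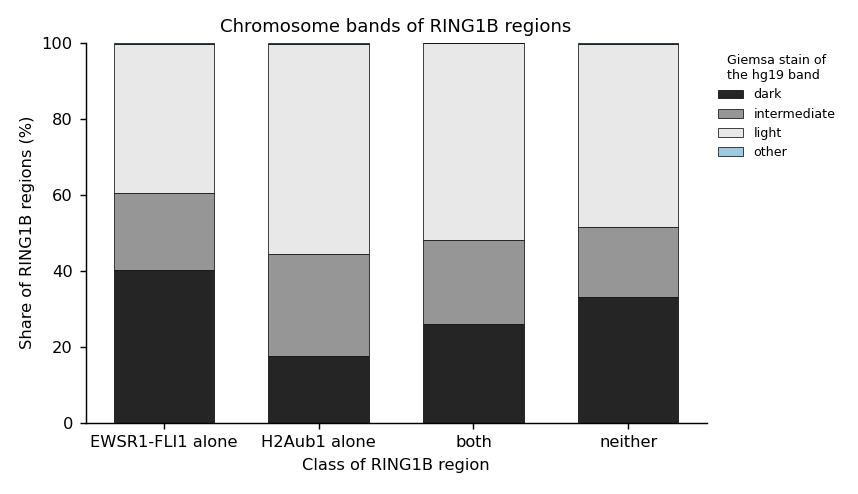
Giemsa stain of the hg19 chromosome band (share of regions in %, vertical axis) for RING1B regions by class (horizontal axis): EWSR1-FLI1 alone, H2Aub1 alone, both features or neither; dark joins the 2 darkest stain classes, and other stands for centromeric or variable bands. Dark bands held 40.1% of the regions with EWSR1-FLI1 alone and 17.5% of those with H2Aub1 alone.

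By chromosome, the density was 0.267 regions per Mb over the genome. Per Mb, chromosome 8 stood highest, with 63 regions (0.430 per Mb), followed by chromosome 13 with 40 (0.347 per Mb) and chromosome 18 with 27 (0.346 per Mb). Chromosomes 22 and 15 stood lowest per Mb, with 5 and 10 regions (0.0975 per Mb each), and X had 16 (0.103 per Mb). By number, chromosomes 1 and 2 held most, with 73 and 70. EWSR1-FLI1 peaks were also densest on chromosome 8 (0.970 per Mb) and sparsest on X (0.316 per Mb). The part of the EWSR1-FLI1 peak density in the density of the regions was not tested.

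As a share of the RING1B regions of a chromosome, chromosome 15 stood lowest with 10 of 40 (interval 14.2 to 40.2%), and X highest with 16 of 21 (76.2%, 54.9 to 89.4%). Chromosome 4 had 56 of 84 (66.7%, 56.1 to 75.8%). Only the intervals of chromosomes 15, 4 and X leave out the genome share of 51.1% among 23 chromosomes, which were compared without adjustment. In the outer 10 Mb of the chromosomes lay 83 of 811 (10.2%, 8.33 to 12.5%), against 15.8% of regions with H2Aub1 alone (difference -5.58 points, -11.1 to -0.873) and 13.0% of those with neither (-2.78 points, -6.66 to 0.804). The share was 12.2% over all RING1B regions, and 15.15% of the hg19 length lies there.

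The choice allows H2Aub1 peaks seen in a single replicate, and few regions held one. Removing regions with a reproducible H2Aub1 region lowers this share but does not fix it. A peak of either list touched 50 of the 811 (6.17%), against 75 of 461 regions with neither feature (16.3%), which were chosen for lacking a reproducible H2Aub1 region in the same way. Of the 50, 45 met a peak of replicate 1 alone, 4 met a peak of replicate 2 alone and 1 met a peak of each that did not form a reproducible region together. The scores of the replicate 1 peaks at these sites ran from 50.14 to 209.29 with a median of 93.0, beside a median of 84.7 for the whole list. The median EWSR1-FLI1 score was 167 in the regions with such a peak and 172 in those without, and the median RING1B score of replicate 1 was 107 and 159. These 50 regions lay a median of 86.5 kb from a reproducible H2Aub1 region, against 473 kb for the other 761.

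Reproducible H2Aub1 regions were distant from most sites. Within 10 kb lay 46 of the 811 (5.67%, 4.28 to 7.48%), against 49 of 461 regions with neither (10.6%, 8.13 to 13.8%), a difference of -4.96 points (-8.40 to -1.87). Within 100 kb the shares were 19.0% and 29.5% (-10.5 points, -15.5 to -5.62). Within 1 kb they were 1.97% and 1.74%, and the interval of the difference ran from -1.58 to 1.72 points. The EWSR1-FLI1 score did not go with this distance over the 811 regions (Spearman rho 0.0644, across regions).

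At the borders of the choice, the smallest overlap with an EWSR1-FLI1 peak was 504 bp, at 12p11.21 (chromosome 12, 31913436 to 31914473, EWSR1-FLI1 score 56.13). That peak was itself only 504 bp wide, the narrowest in the 811 regions, so its small overlap reflects its width. At least 50% of the EWSR1-FLI1 peak was covered in 808 of 811 regions. The region with neither feature that came nearest to an EWSR1-FLI1 peak was 379 bp away, at 4p14 (chromosome 4, 40197746 to 40199199), and 3 such regions lay within 1 kb of one. The EWSR1-FLI1 border was therefore sparsely filled. The H2Aub1 border was fuller, with 16 of the 811 regions (1.97%) within 1 kb of an H2Aub1 region. The share was 1.74% for regions with neither feature. There were 6408 reproducible H2Aub1 regions against 2145 EWSR1-FLI1 peaks, and the part of list size in this was not tested. The nearest of the 811 to an H2Aub1 region, at 10q25.3 (chromosome 10, 115991117 to 115993246), was 1 bp away. Just outside, a region with both features at 7q21.11 (chromosome 7, 77523231 to 77524650) shared 37 bp with an H2Aub1 region.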

How the data were processed

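Peak lists of 5 ChIP-seq samples of A673 cells were analysed, 1 list per sample. Bowtie and hg19 are named for all samples, and mm9 also for the RING1B and H2Aub1 samples, per the submitters' processing notes; their versions and the role of mm9 are unstated. Peaks carry MACS in their names, per the file headers and peak names, and no version, threshold or control library is stated. The unit is the score that the authors' peak caller gave each deposited peak. It was used only within a list.

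Regions were merged and classed with Python 3.11.15 and NumPy 2.4.6, intervals came from SciPy 1.17.1, and the classing was tested on simulated data. Distances run between region edges, or between centres of the highest-scoring peaks. Bands and chromosome lengths came from the hg19 band table of the R package circlize 0.4.16, whose lengths equal hg19 for 24 chromosomes. Groups of linked regions of equal size were ordered by span.

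The regions, comparisons and lists were chosen with earlier results of these data known. Named regions were the 10 with the highest EWSR1-FLI1 score, the 5 largest groups of linked regions and those at the borders of the choice; others are said to be picked afterwards. The RefSeq tables at hand are GRCh38, so distances to promoters, GGAA repeats and the planned 9 gene lists were not run. Depth is unknown. Alternatives changed the overlap rule, replicates, score threshold, chromosomes and distances.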

Additional observations from a re-analysis of the deposited data

How the results depend on the processing

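Over the alternatives run, the differences from regions with H2Aub1 alone in spacing, bands and nearest neighbours kept their direction and an interval without 0. For nearest neighbours this remains a description, because the class of a neighbour comes from the lists that made the classes. The median centre distance stayed between 63.5 and 69 bp. Differences from regions with neither feature were not among these alternatives, and there the sign of the spacing difference depended on the distance. The spacing difference of -25.3 points ranged from -33.0 (neighbours within 10 kb) to -8.61 (within 200 kb), the band difference from 18.8 to 24.7 points and the difference in nearest neighbours from 44.0 to 80.6 points. What moved was the number of regions and their share. The number was 475 with only the upper 50% of each list by score and otherwise 759 to 1070, against 811. The share of 51.1% was 54.6% when an overlap needed 50% of the shorter interval, 54.4% for the upper 50% of each list and 47.95% when H2Aub1 peaks of either replicate counted. With 1 replicate of RING1B or H2Aub1 left out in turn, the share ranged from 26.8% (without RING1B replicate 1) to 51.7%, and the number from 766 to 1070. With RING1B and H2Aub1 paired by replicate number (replicate block) it was 47.8%, with 759 regions and a spacing difference of -27.3 points. The labels do not say that equal numbers mark a shared culture, and the list of EWSR1-FLI1 has no replicate to leave out. The causes were not tested. Comparisons of promoter distance and GGAA repeats were not run. The alternatives for bands and nearest neighbours were added after seeing the data. With unknown depth, a site without a peak is not shown to be unbound.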
